A study of Mus musculus with 3 samples.

Results

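The 8 genes described here, Gas5, Snhg1, Snhg3, Snhg5, Snhg6, Snhg8, Snhg12 and Snhg15, are noncoding genes whose introns carry small nucleolar RNAs (snoRNAs). They were chosen by symbol, each symbol matched 1 gene of the annotation, and they make up 8 of the 55536 annotated gene rows. RNA came from the cytosolic fraction of macrophages that were grown from bone marrow of C57BL/6J mice and then exposed for 25 minutes to 100 ng/ml lipid A, the membrane-anchoring lipid of lipopolysaccharide, which stimulates the receptor TLR4. Ribosomal RNA was depleted from 1 µg of total RNA for each library. The 3 libraries are biological replicates of this single group, and no unstimulated or nuclear sample was analysed here. All 3 libraries carry the same donor record, age and sex were not collected, and the labels do not say whether the replicates were separate animals or cultures, so the spread between them may be technical.

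The libraries held between 38608503 and 52956907 expected counts on gene rows, and 3 counts, taken as the floor of detection for counting error, corresponded to 0.0566 to 0.0777 CPM, the count scaled to the library size. All 10 listed macrophage markers were detected in every library, among them Lyz2 at 4945 ± 1494 TPM and Csf1r at 299 ± 58.2 TPM (a transcript's share of the library corrected for length; mean ± SD, n = 3). The summed level of 6 T and NK cell markers was 0.02 to 0.06 TPM and that of 4 erythroid markers 0 to 0.02 TPM, with Trac and Hbb-bs at 0. Stromal markers summed to 0.01 to 0.08 TPM. Sums were higher for B cell markers (0.82 to 1.16 TPM), mast cell markers (0.48 to 0.92 TPM) and dendritic cell markers (0.44 to 0.96 TPM). Of these, Cd79b was at 0.93 ± 0.16 TPM and Kit at 0.58 ± 0.2 TPM. The listed neutrophil genes S100a8 and S100a9 were present at 12.3 ± 2.67 and 20.2 ± 6.22 TPM. The granule genes Elane and Mpo were at 0.22 ± 0.12 and 0.3 ± 0.24 TPM, and Ly6g was at 0 or 0.03 TPM. In such bulk samples fewer cells of a type and less RNA per cell cannot be told apart. Replicate 2 held more of the nuclear-retained RNAs than the other libraries, with Malat1 at 392, 1144 and 374 TPM and Neat1 at 32.4, 106.5 and 37.3 TPM in replicates 1, 2 and 3.

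A snoRNA host gene is transcribed and spliced like a messenger RNA gene, and the snoRNA is trimmed from the excised intron. Box C/D snoRNAs guide ribose methylation and box H/ACA snoRNAs guide pseudouridylation of ribosomal and other RNAs in the nucleolus. The spliced exons of many hosts carry no long reading frame, reach the cytoplasm and are degraded there during translation by nonsense-mediated decay. Many host promoters resemble those of ribosomal protein genes, whose transcripts begin with C followed by a run of pyrimidines.

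The 8 genes enclose 30 annotated snoRNA rows on their own strand, and all 30 lie wholly inside an intron of the host's most abundant transcript. Gas5 holds 10 of them in 9 introns, Snhg1 holds 8 in 8 introns, Snhg12 holds 5 in 4 introns, Snhg3 and Snhg5 hold 2 each, and Snhg6, Snhg8 and Snhg15 hold 1 each. A copy of Snord80 in Gas5 and a copy of Snora16a in Snhg12 are overlapping duplicate rows. The distance from the snoRNA's end to the next exon had a median of 76 bases, and 23 of the 30 rows lay 40 to 90 bases from it. The shortest distance was 65 bases, for Mir5117 in Gas5, which the annotation types as a snoRNA, and for Gm22744 in Snhg1. Snora9 in Snhg15 was the farthest from the next exon, at 1595 bases. Host exons were small in the genes with many snoRNAs: 11 of the 12 exons of Gas5-224 and 8 of the 10 exons of Snhg1-211 were under 60 bases, and exons made up 14.9% and 20.4% of the span of these transcripts.

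**Figure D1:**
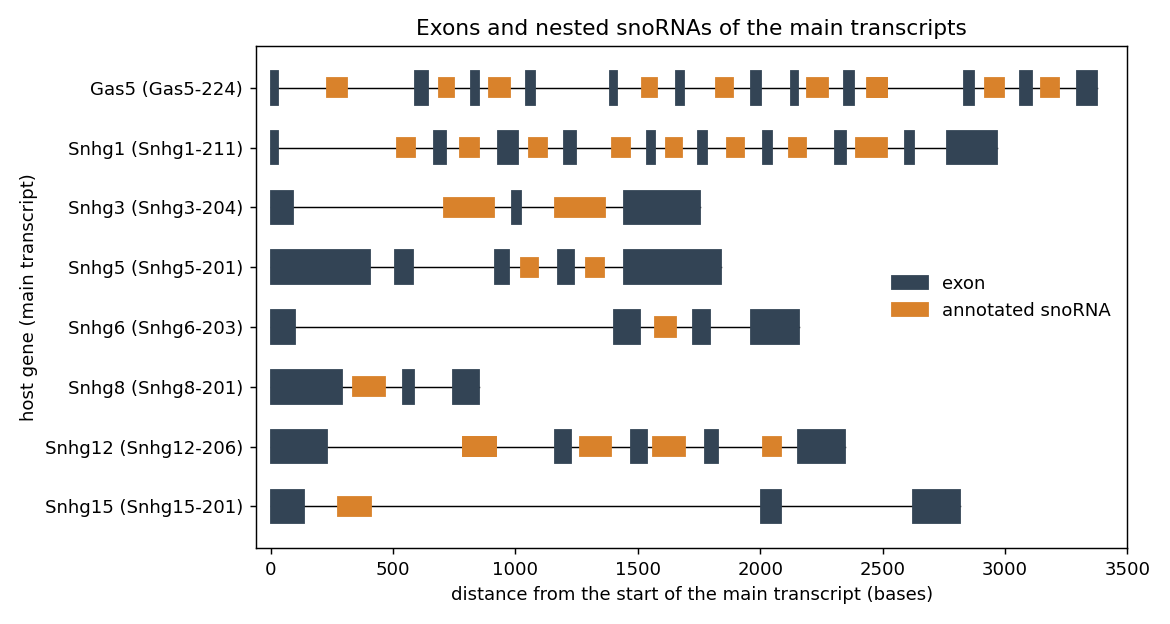
Exons (dark boxes) and annotated snoRNAs (orange boxes) of the 8 hosts, drawn by distance in bases from the start of the transcript with the highest mean share of gene TPM. All 30 snoRNA rows fall between exons, and Gas5 and Snhg1 alternate short exons with snoRNA introns.

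The snoRNA sequences below show the 2 families and the 3 rows that were counted beside 3 that were not. They are from GENCODE M21 (mm10). Capitals mark TGATGA and the last CTGA in box C/D snoRNAs, the last CTGA alone in Snord22, and the ACA near the end of box H/ACA snoRNAs. Snord50a of Snhg5 (chr9:88521529-88521600, minus strand), Snord99 of Snhg12 (chr4:132310691-132310764, plus strand) and Snord22 of Snhg1 (chr19:8725866-8725991, plus strand) belong to the C/D family. Snora24 of Snhg8 (chr3:123507937-123508066, minus strand), and Snora73a (chr4:132352775-132352979) and Snora73b (chr4:132352322-132352526) of Snhg3, both on the minus strand, belong to the H/ACA family.
Snord50a: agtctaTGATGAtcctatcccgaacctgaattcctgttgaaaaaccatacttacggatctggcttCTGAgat
Snord99: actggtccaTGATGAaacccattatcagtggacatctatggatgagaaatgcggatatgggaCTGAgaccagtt
Snord22: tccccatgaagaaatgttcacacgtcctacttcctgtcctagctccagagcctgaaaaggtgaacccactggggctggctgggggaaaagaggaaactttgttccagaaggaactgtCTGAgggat
Snora24: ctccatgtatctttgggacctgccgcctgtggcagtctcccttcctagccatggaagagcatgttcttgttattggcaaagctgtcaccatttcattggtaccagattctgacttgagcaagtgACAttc
Snora73a: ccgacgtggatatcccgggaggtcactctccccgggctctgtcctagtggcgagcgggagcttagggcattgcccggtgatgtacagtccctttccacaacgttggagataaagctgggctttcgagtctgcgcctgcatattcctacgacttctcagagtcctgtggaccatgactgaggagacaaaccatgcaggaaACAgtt
Snora73b: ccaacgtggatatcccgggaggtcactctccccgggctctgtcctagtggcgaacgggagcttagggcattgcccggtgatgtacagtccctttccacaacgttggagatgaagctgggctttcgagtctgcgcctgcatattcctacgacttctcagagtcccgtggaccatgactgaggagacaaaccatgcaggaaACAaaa
TGATGA in the opening part and CTGA in the closing part of the sequence were found in 18 of the 30 host snoRNAs, against 22.1% of all 1507 annotated snoRNAs, and ACA beginning within the last 7 bases in 8 of 30, against 45.99%. Only the RNA strand was searched. Mir5117 carried both patterns.

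The starts of the hosts were read from the RefSeq promoter table (GRCm38.p6), which held 8 windows for 7 of the 8 genes. The windows show the bases at which transcription is annotated to begin. Each runs from 40 bases before the table's start to 20 bases after it, on the transcribed strand. Capitals mark TATA within the 40 bases before the start, and a run of at least 5 pyrimidines (C or T) that opens with C within 5 bases of the start. Snhg6 has no entry in the table, so the first 30 bases of Snhg6-203 (chr1:9944089-9944118, minus strand) are given from GENCODE M21. The windows lie at chr1:161034561-161034621 and chr1:161035126-161035186 (Gas5, upstream and downstream start, plus strand), chr19:8723447-8723507 (Snhg1, plus), chr4:132353666-132353726 (Snhg3, minus), chr9:88522877-88522937 (Snhg5, minus), chr3:123508316-123508376 (Snhg8, minus), chr4:132308638-132308698 (Snhg12, plus) and chr11:6528740-6528800 (Snhg15, minus).
Gas5 upstream: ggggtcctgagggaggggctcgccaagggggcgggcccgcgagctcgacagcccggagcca
Gas5 downstream: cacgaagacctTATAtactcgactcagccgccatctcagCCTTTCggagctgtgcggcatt
Snhg1: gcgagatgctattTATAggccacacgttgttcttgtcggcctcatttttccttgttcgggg
Snhg3: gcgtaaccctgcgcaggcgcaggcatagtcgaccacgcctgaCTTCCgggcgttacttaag
Snhg5: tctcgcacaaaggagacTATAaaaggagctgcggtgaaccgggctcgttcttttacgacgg
Snhg8: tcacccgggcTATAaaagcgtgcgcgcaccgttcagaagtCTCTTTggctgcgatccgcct
Snhg12: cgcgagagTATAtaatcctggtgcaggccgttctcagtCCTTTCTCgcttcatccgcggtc
Snhg15: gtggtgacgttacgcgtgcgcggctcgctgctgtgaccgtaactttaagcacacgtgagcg
Snhg6-203: CTTTCTCggcagcgccgtagagcgcgagca
The pyrimidine run was present in 4 of the 7 genes with a window, namely Gas5, Snhg3, Snhg8 and Snhg12, against 18.3% of all 32851 windows in the table and 39.6% of 91 windows of genes named Rpl or Rps and a number. In Gas5 it belonged to the downstream start, where it begins at base 3 of Gas5-224, and not to the upstream one. At the starts of the annotated main transcripts, only the bases from the start onward were searched. There 5 of the 8 genes have the run: Gas5, Snhg3, Snhg5, Snhg6 and Snhg8. Snhg6-203 opens directly with a run of 7 pyrimidines, and in Snhg5-201 the run begins at base 3, too far from the table's start to be marked above. Snhg12-206 begins at the table's start, and its run opens 2 bases before that base, so the search from the start onward missed it. The counts therefore differ in the bases searched as well as in the starts. TATA, which reads the same on both strands, was found in 5 of the 7 genes, against 7.63% of all windows. It began 32 bases before the start of Snhg12-206, 30 before Snhg5-201 and 26 before Gas5-224, but 15 before Snhg1-211 and 38 bases inside Snhg8-201, whose annotated start lies 68 bases upstream of the table's start. TATA was searched for after the windows had been seen. The run and TATA were counted per gene for the hosts but per window for the background, and Gas5 could count through either window.

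Levels differed 25.3-fold between the highest and the lowest host. Among the hosts that carry only or mainly C/D snoRNAs, Gas5 (growth arrest specific 5; chr1:161034422-161038539) stood at 31.9, 26.3 and 42.3 TPM in replicates 1, 2 and 3, from 1033, 761 and 810 expected counts, a mean of 33.5 ± 8.11 TPM. It made up 46.9, 44.5 and 48.6% of the summed TPM of the 8 genes. Snhg6 (chr1:9941959-9944118), host of Snord87, stood at 9.42, 7.36 and 9.10 TPM from 236, 151 and 139 counts. Snhg1 (chr19:8723475-8726443) was at 3.53, 4.81 and 4.54 TPM from 181, 217.1 and 115 counts. Snhg5 (chr9:88521050-88522929), host of Snord50a and Snord50b, was the lowest, at 0.93, 1.47 and 1.57 TPM from 71, 90 and 63 counts. Gas5 was thus above every other host in each library, and Snhg5 was below every other host in each library.

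Of the H/ACA hosts, Snhg8 (chr3:123507552-123508404) was the second highest gene at 9.92, 8.76 and 12.6 TPM from 251, 182 and 197 counts. Snhg15 (chr11:6525591-6528760), host of Snora9, was at 5.49, 5.09 and 7.10 TPM from 167, 125 and 126 counts. Snhg3 (chr4:132348014-132353686) was at 2.86, 2.42 and 4.70 TPM from 66.5, 46.5 and 67.4 counts. Snhg12 (chr4:132308623-132311024), which carries both families, was at 3.99, 2.91 and 5.14 TPM from 172, 113 and 124 counts. Replicate 3 was the highest of the libraries on the TPM scale for Gas5, for Snhg5 and for all 4 of these genes. In that library protein-coding and long noncoding genes together held 30.9% of all TPM, against 23.2 and 23.9% in replicates 1 and 2, and its part in the higher values was not tested. The direction turned with the table: in transcript tables made directly from the reads, replicate 1 was the highest for each of these 6 genes, with Gas5 at 16.4, 7.46 and 10.01 TPM.

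**Figure D2:**
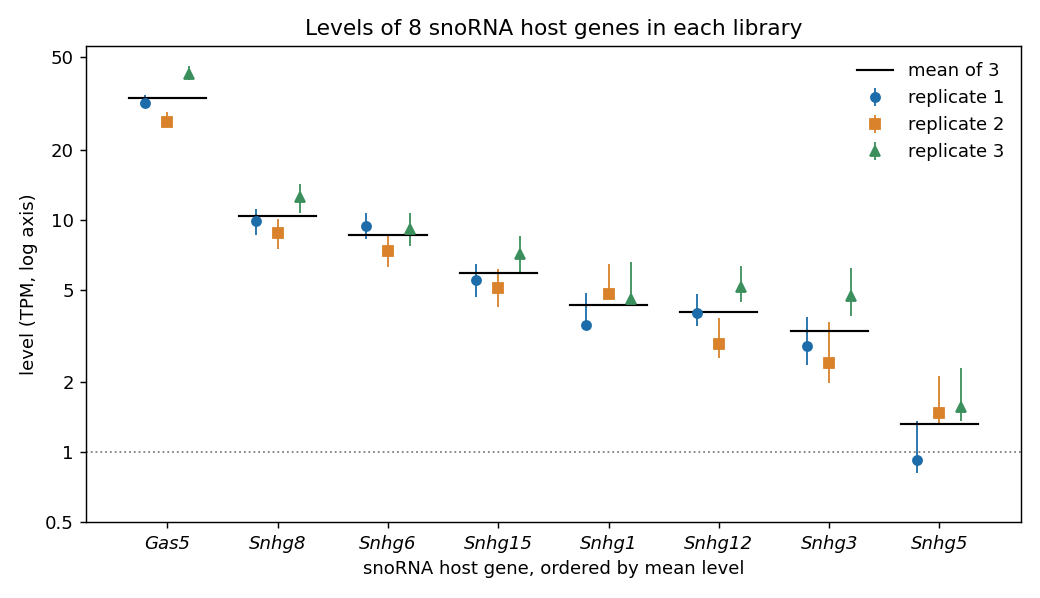
Level of each host in each library in TPM on a log axis, with the deposited interval of the estimate within a library as a vertical line, the mean of 3 libraries as a black bar and 1 TPM as a dotted line. Gas5 lies between 26.3 and 42.3 TPM, above all others, and Snhg5 between 0.93 and 1.57 TPM, below all others.

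The order of mean levels was Gas5, Snhg8, Snhg6, Snhg15, Snhg1, Snhg12, Snhg3 and Snhg5. Gas5 was 3.20 ± 0.18 times as high as Snhg8 (mean ratio ± SD, n = 3), the ranges over libraries did not overlap, and the deposited intervals were separate in 3 of 3 libraries. Snhg6 was above Snhg15 in 3 of 3 libraries without overlap of ranges, as was Snhg15 above Snhg1 and Snhg3 above Snhg5, although the deposited intervals of Snhg15 and Snhg1 were not separate in any library. Snhg8 was above Snhg6 in 3 of 3 libraries by 1.21 ± 0.16 times, but their ranges overlapped and the intervals within a library were not separate in any. Snhg12 and Snhg3 likewise overlapped in range. Snhg1 exceeded Snhg12 in 1 of 3 libraries only, so this pair had no stable order.

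At 1 TPM or more in every library, 7 of the 8 hosts were detected. The share among all 10155 long noncoding genes was 1.77%, and among all gene rows 17.2%. Because the hosts were chosen with earlier results of these data known, the comparison with these shares is a description only. Snhg5 missed the level in replicate 1 alone. In the tables made directly from the reads, whose TPM of the hosts is lower, 5 of the 8 were detected, and Snhg3 and Snhg12 fell short with 0.72 and 0.75 TPM in replicate 2. Ranked by mean TPM among the 10155 long noncoding genes, Gas5 was at place 14, Snhg8 at 36, Snhg6 at 43, Snhg15 at 56, Snhg1 at 70, Snhg12 at 77, Snhg3 at 94 and Snhg5 at 180. Snhg3 shares its strand and much of its span with the protein-coding gene Rcc1 (chr4:132331919-132353605; 412, 354 and 317 counts), and the antisense gene Gm17300 overlaps it too, so its counts are uncertain. Gas5 and Snhg6 overlap the antisense genes Zbtb37 and Mcmdc2, and the sources used here do not say whether counting used strand.

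Of the 30 snoRNAs inside these hosts, 3 had an expected count above 0 in any library. Snora73b, a form of the U17 snoRNA that takes part in ribosomal RNA processing, had 75.5, 128.6 and 113.4 counts in replicates 1, 2 and 3. Snora73a, the other form in Snhg3, had 34.6, 90.04 and 81.6 counts. Snord22 in Snhg1 had 17.97, 34.9 and 57.98 counts. Each of the 3 was lowest in replicate 1. Snora73a and Snora73b differ at 7 of 205 positions, so the division of reads between them is uncertain. Snord22 lies whole in an exon of 3 annotated Snhg1 transcripts, so the division of its reads between the snoRNA and the host is uncertain too. The other 27 rows were at 0 in every library.

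Length alone did not separate the counted rows from the others. Snora73a and Snora73b are 205 bases long, with effective lengths of 24.3, 24.8 and 34.1 bases in the 3 libraries (the number of positions at which a fragment of the library's size range can start). Snord22 is 126 bases long, and its effective length was 0, 0 and 1.58 bases. Snora24, at 130 bases with effective lengths of 1.31, 1.22 and 2.18 bases, was at 0, as were the other 5 host rows of 129 to 137 bases. All 21 host snoRNAs under 100 bases had an effective length of 0, and none of them was counted in this table. The table made directly from the reads gave a few counts to some of them, at most 5.23, for Gm22357 of Gas5 in replicate 2. Over the whole annotation, 0 of 458 snoRNA rows under 100 bases were counted, against 36 of 995 from 100 to under 150 bases and 14 of 31 at 200 bases or more. A count of 0 for a short snoRNA therefore does not show that it was absent.

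Transcript shares are given as the percent of a gene's TPM on each annotated transcript. The deposit holds 2 transcript tables per library. One is alignment-based, as are the levels and counts given above unless stated otherwise. The other is an alignment-free table made directly from the reads. Snhg8 and Snhg12 were nearly uniform: Snhg8-201 held 94.9, 91.2 and 94.6% and Snhg12-206 held 95.2, 86.2 and 92.6% in replicates 1, 2 and 3. Snhg3-204 held 85.5 ± 4.31%, with Snhg3-203 and Snhg3-202 at 8.60 ± 1.65 and 5.88 ± 4.58%. The alignment-free table gave 94.2 ± 2.03% for Snhg8-201, 90.4 ± 2.85% for Snhg12-206 and 87.2 ± 2.85% for Snhg3-204. For these 3 genes the quantifications therefore differed by less than the SD between libraries.

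Gas5 was divided mainly between 2 spliced transcripts. Gas5-224 held 72.7, 67.1 and 77.6%, and Gas5-210 held 21.8, 17.4 and 17.7%. The 2 transcripts share 10 exons. Gas5-210 has a longer opening exon, chr1:161035067-161035194 with 128 bases against 32 in Gas5-224, and it skips exon 7 of Gas5-224, chr1:161037124-161037164, which is shown here because it separates the spliced forms.
Gas5 exon 7: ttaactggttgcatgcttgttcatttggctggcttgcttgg
The alignment-free shares were 69.6 ± 4.45% for Gas5-224 and 20.0 ± 2.54% for Gas5-210. The order of the 2 transcripts was the same in all 3 libraries in both tables.

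Snhg1 was the host on which the quantifications disagreed. In the alignment-based table Snhg1-211 held 85.3, 74.5 and 77.8%, and Snhg1-207 held 0% in every library. In the alignment-free table Snhg1-207 held 44.1, 77.3 and 63.4%, and Snhg1-211 held 41.1, 0 and 18.4%. The transcripts share 8 exons and differ at their 5′ end. Snhg1-211 opens with a 32-base exon (chr19:8723475-8723506), whereas Snhg1-207 opens within the following intron with a 185-base exon (chr19:8724005-8724189). The first 60 bases of Snhg1-207, in capitals, lie inside the snoRNA Gm25855 (chr19:8723993-8724064), so its opening exon and the snoRNA share sequence.
Snhg1-211 exon 1: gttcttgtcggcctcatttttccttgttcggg
Snhg1-207 exon 1, first 80 bases: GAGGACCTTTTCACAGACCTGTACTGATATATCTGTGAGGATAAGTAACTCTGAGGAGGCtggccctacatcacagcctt
Which of the 2 starts was used cannot be told from these tables. Snhg1-209, a retained-intron transcript of 312 bases, held 8.08 ± 4.40% on 1.55 to 4.04 counts.

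Snhg6 and Snhg15 each had 2 common transcripts in stable proportion. Snhg6-203 held 74.9 ± 3.73% and Snhg6-204 23.3 ± 1.35%; they differ in the closing exon, 197 against 125 bases, and by 1 base at the start. Snhg15-201 held 47.9 ± 4.55%, Snhg15-204 40.1 ± 1.98% and Snhg15-202 7.97 ± 4.01%. Snhg15-204 starts 319 bases upstream of Snhg15-201. On the scale of counts Snhg15-204, the longer form, led with 51.0 ± 3.66% against 32.6 ± 4.69%, so the leading transcript of Snhg15 depended on whether length was corrected for.

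Snhg5 changed its proportions between libraries. Snhg5-201 held 67.7 and 68.2% in replicates 1 and 2 and 45.5% in replicate 3, while Snhg5-202, which splices out part of the opening exon, held 19.4, 19.6 and 54.5%. The alignment-free table gave 17.6, 12.7 and 50.9% for Snhg5-202. These shares rest on 10.7, 13.1 and 29.2 expected counts on Snhg5-202. Replicate 3 stood apart in both tables, and the difference rests on that library alone.

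**Figure D3:**
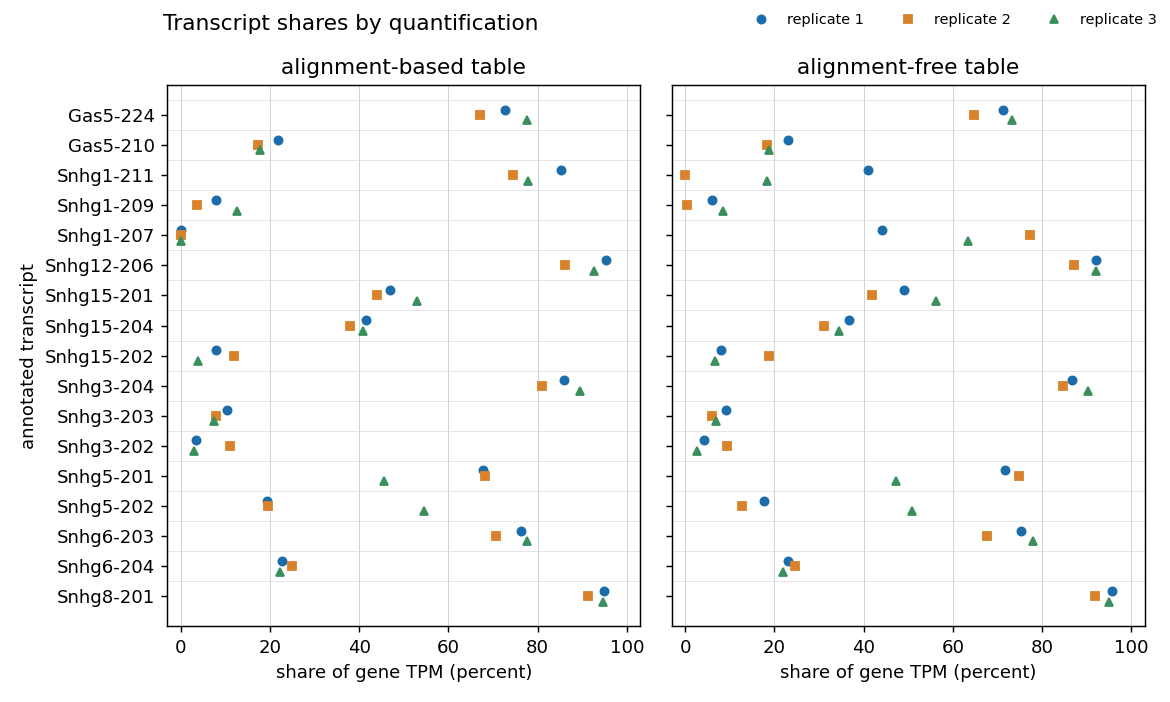
Percent of gene TPM on each annotated transcript that reached 10% in any library in either table, with the alignment-based table on the left and the alignment-free table on the right and 1 point per library. The tables give like shares except for Snhg1-211 and Snhg1-207, and Snhg5-201 and Snhg5-202 differ in replicate 3.

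Transcripts that keep an intron took a larger share of the host counts in replicate 2. Annotated retained-intron transcripts exist for Gas5, Snhg1, Snhg5 and Snhg8. In Gas5 they held 95.9, 219.9 and 57.7 expected counts in replicates 1, 2 and 3, which is 9.29, 28.9 and 7.12% of the gene's counts. In Snhg1 they held 33.4, 46.8 and 26.6%, and in Snhg8 8.59, 14.9 and 10.1%. Replicate 2 was the highest for each of these 3 genes. As a share of TPM, however, Snhg1 was at 14.7, 22.6 and 22.3%, so that replicates 2 and 3 were nearly equal, while Gas5 was at 4.11, 14.4 and 3.62%. In Snhg5 they held 12.8, 14.6 and 0% of counts, on 9.12, 13.1 and 0 counts, and 12.9, 12.2 and 0% of TPM.

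On the scale of CPM with TMM factors, which adjust the library sizes for differences in composition and do not correct for length, the retained-intron transcripts of Gas5 were at 1.84, 5.09 and 1.46 CPM, a 3.49-fold range, and its other transcripts at 18, 12.5 and 19.01 CPM. The 2 parts moved in opposite directions in replicate 2, and the gene total varied by 1.16-fold at most. In Snhg1 the retained-intron part was at 1.16, 2.35 and 0.77 CPM, a 3.04-fold range, and the other transcripts at 2.31, 2.67 and 2.13 CPM. Its higher total in replicate 2 thus lay mostly in the retained-intron part.

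Snhg12 and Snhg15 have no transcript of the retained-intron type, but 8 of 10 and 1 of 4 of their transcripts hold a whole snoRNA in an exon. Those of Snhg12 took 11.4, 30.3 and 8.19% of its counts, and those of Snhg15 took 5.38, 9.38 and 3.49%. This grouping was made after the values had been seen. Over all 8 hosts, transcripts with a snoRNA in an exon took 8.62, 19.3 and 5.94% of counts. Replicate 2 was again the highest for this sum, but not for every host. In Snhg5 such transcripts took 7.32, 2.99 and 0% of its counts, on 5.2, 2.69 and 0 counts, highest in replicate 1. None of the transcripts of Snhg3 and Snhg6 could enter this count because none holds a whole snoRNA in an exon.

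Genes outside this set had the same tendency. Of 2875 genes with a mean of at least 20 retained-intron counts and 100 counts in all, 77.2% had their highest retained-intron share of counts in replicate 2, as did 3 of the 3 hosts in that set. The share in replicate 2 was over 2 times that of both other libraries in 34.2% of those genes and in 1 of the 3 hosts, Gas5. The median share over the 2875 genes was 2.73, 5.03 and 2.42%, below the values of Gas5, Snhg1 and Snhg8 in each library. With mean counts of 171 and 210, Snhg1 and Snhg8 could meet the minimum of 20 retained-intron counts only at a high share. Their place above the median therefore follows largely from that minimum. Whether hosts keep introns more than other genes was not tested. Malat1 and Neat1 were highest in replicate 2 as well. So were the 5 listed neutrophil genes, with S100a9 at 15.9, 27.4 and 17.4 TPM and a summed level from 25.9 TPM in replicate 1 to 43.2 TPM in replicate 2, of which Ly6g, a defining marker, was at 0, 0.03 and 0 TPM. The part of these RNAs in the result was not tested.

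**Figure D4:**
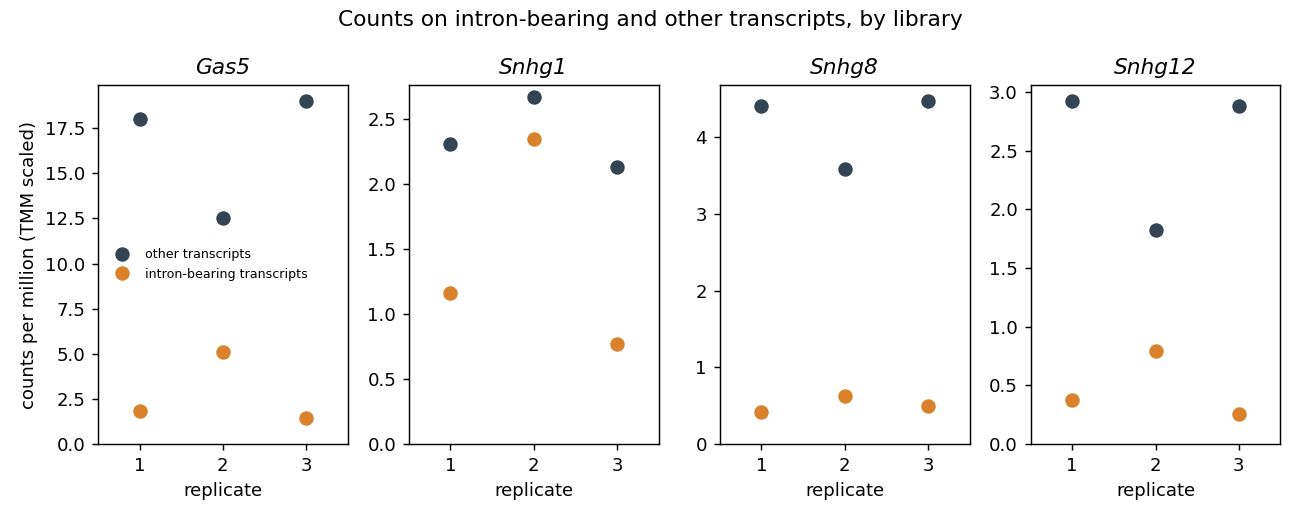
TMM-scaled CPM on intron-bearing transcripts (orange; retained-intron type for Gas5, Snhg1 and Snhg8, transcripts with a snoRNA in an exon for Snhg12) and on all other transcripts of the gene (dark), with 1 point per library and a linear axis from 0. Intron-bearing transcripts are highest in replicate 2 in all 4 genes, at 5.09 CPM in Gas5.

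Gene totals were compared between libraries on the TMM-scaled CPM scale. Of the 6 hosts with a mean count of 100 or more, 0 differed over 2-fold between replicates 1 and 2, 1 and 3, or 2 and 3, where 1.53, 0.541 and 2.88% of 10348 genes did, so a count of 0 among 6 is near the background. Snhg3 and Snhg5, with mean counts of 60.1 and 74.7, were below that minimum, and their largest folds were 1.59 and 1.53. The largest fold of any host was 1.73, for Snhg1 between replicates 2 and 3. The SD of log2 CPM was 0.11 for Gas5, 0.13 for Snhg8, 0.08 for Snhg15, 0.17 for Snhg12, 0.21 for Snhg6 and 0.40 for Snhg1. The median of these 6 was above that of all genes, at 0.15 against 0.11 for all 10348 genes and 0.22 for 196 long noncoding genes of the same minimum.

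Spread depends on counts, so each host was set beside genes within 1.5-fold of its mean count. Among 1149 such genes, 87.5% had a larger SD than Snhg15, and among 1286 such genes 17.96% had a larger SD than Snhg1. The remaining hosts lay between, with 66.97% for Snhg8, 59.28% for Snhg12 and 48.27% for Snhg3. For Snhg5, Snhg6 and Gas5 the share was 45.97, 42.4 and 42.35%. Of all 10348 genes, 5.89% had a larger SD than Snhg1. Snhg1 was the most variable host on either scale. Its log2 CPM deviated from its mean by -0.09, 0.43 and -0.34 in replicates 1, 2 and 3, while Gas5 deviated by 0.04, -0.13 and 0.09. Of the 6 tested hosts, 5 were lowest in replicate 2, as were 43.5% of the 10348 genes, and Snhg1 was highest there, as were 35.7%.

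**Figure D5:**
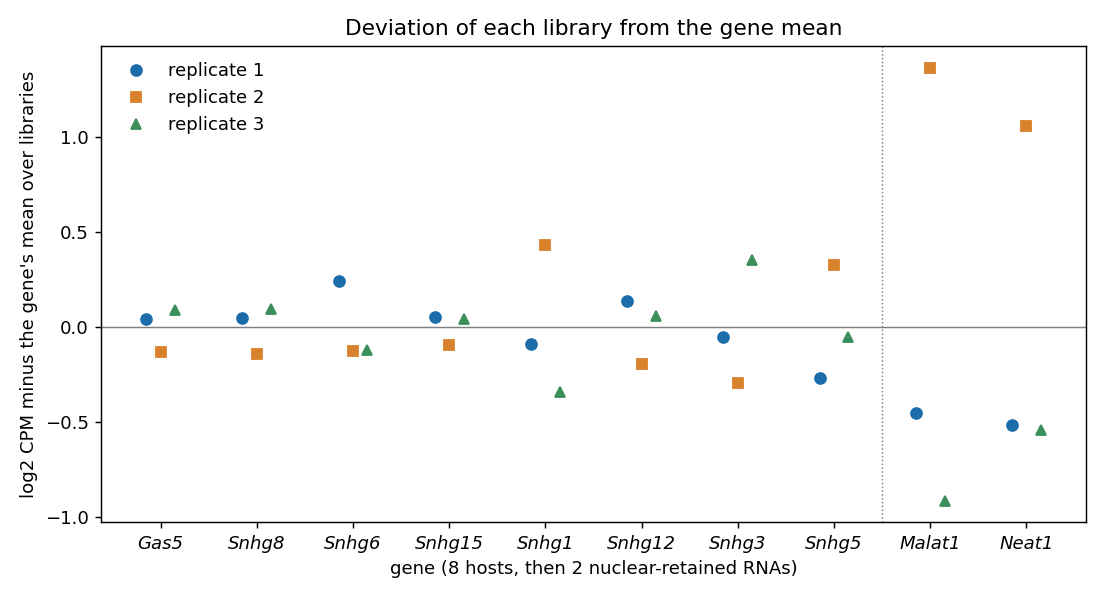
Log2 CPM in each library minus the mean of that gene, for the 8 hosts and for Malat1 and Neat1. Snhg1 and Snhg5 are highest in replicate 2, the other 6 hosts are lowest there, and Malat1 and Neat1 are raised there by more than 1 on the log2 scale.

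The genes whose pattern over the 3 libraries was most like the median host were Rpp14, Ap2m1 and Ggps1, at Euclidean distances of 0.018, 0.018 and 0.018 in centred log2 CPM. With 3 libraries the likeness carries little information, since 49.9% of 10342 genes lay closer to the hosts' median than the median host did.

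Other noncoding hosts were listed for comparison, and 10 of 13 symbols matched. At 1 TPM or more in every library, 2 of the 10 were detected, Zfas1 at 10.3 ± 3.02 TPM and Epb41l4aos at 8.40 ± 1.79 TPM, both within the range of the 8 hosts below Gas5. Snhg18 was at 0 in every library. Snhg17, at 1.08 ± 0.25 TPM, was the 1 gene of this list with a mean count of 100 or more that varied over 2-fold, by 3.24-fold in CPM, with its highest value in replicate 2.

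Protein-coding hosts, whose introns carry snoRNAs too, had medians above the level of any noncoding host. All 15 were detected, with medians of 163, 162 and 207 TPM in replicates 1, 2 and 3. Among the leading ones were Rpl13a, a ribosomal protein, at 413 ± 106 TPM and Hspa8, a chaperone, at 413 ± 87.0 TPM, and the lowest was Nop56, itself a core snoRNA-binding protein, at 10.3 ± 1.22 TPM. None varied over 2-fold between libraries. Genes named Rpl or Rps and a number, a pattern that also takes kinase genes and processed copies, were detected for 89 of 98, with medians of 169, 154 and 234 TPM. Their median deviation of log2 CPM was 0.08, -0.23 and 0.14, beside 0.05, -0.13 and 0.05 for the 6 tested noncoding hosts.

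Messenger RNAs of the proteins that bind the snoRNAs were found in every library, and protein was not measured. All 4 box C/D core genes were detected, led by the methyltransferase Fbl at 13.7 ± 1.94 TPM, Snu13 at 13.4 ± 1.83 TPM and Nop56, with Nop58 the lowest at 9.09 ± 2.20 TPM. All 4 box H/ACA core genes were detected, with Nhp2 at 11.4 ± 1.54 TPM, Nop10 at 6.77 ± 1.72 TPM, Gar1 at 4.82 ± 0.32 TPM and the pseudouridine synthase Dkc1 the lowest at 1.69 ± 0.48 TPM. Of 10 assembly factors 9 were detected, led by Pih1d1, Nolc1 and Ruvbl2 at 9.01 ± 2.29, 5.26 ± 0.94 and 4.88 ± 1.19 TPM. Shq1, a chaperone of the H/ACA enzyme, was the lowest at 0.97 ± 0.12 TPM.

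Messenger RNAs of the decay machinery that acts on spliced host RNAs were found as well. All 10 listed genes of nonsense-mediated decay were detected, led by the helicase Upf1 at 9.41 ± 1.56 TPM and the kinase Smg1 at 9.07 ± 1.24 TPM, with Upf3b the lowest at 2.40 ± 0.43 TPM. All 5 exon junction complex genes were detected, led by Eif4a3 at 28.2 ± 6.39 TPM, Magoh at 12.8 ± 1.91 TPM and Rbm8a at 8.20 ± 2.12 TPM, with Magohb the lowest at 1.96 ± 0.43 TPM. None of the genes of these 5 lists with a mean count of 100 or more varied over 2-fold between libraries.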

How the data were processed

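RNA-seq tables of 3 libraries were used. Per the deposited text files, the assembly was mm10 and the annotation GENCODE M21. The authors deposited expected counts and TPM (scaled over all targets of a table) per gene and transcript from transcriptome alignments, in the columns RSEM writes, with the percent of gene TPM on each transcript, and estimated counts and TPM made directly from reads, in the columns kallisto writes. No source used here gives the tool versions or strandedness. Rows that name no gene held 0.0396 to 0.186% of counts and were left out.

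The alignment-based table gave all values unless stated. Expected counts were rounded for TMM scaling and log2 CPM (prior count 2) in edgeR 4.0.16 (R 4.3.3), tested on simulated data. Python 3.11.15, numpy 2.4.6, pandas 2.3.3 and matplotlib 3.10.9 did the rest. The single group allows no test of a condition, and folds compare libraries. Intervals and the 3-count floor cover counting error only. Members and lists were chosen with earlier results of these data known. Named were the 8 members, their transcripts of 10% or more of gene TPM, and per list the 3 highest detected genes, the lowest and those over 2-fold between libraries. Some genes that this rule takes are not reported here. The count tables were also scaled with DESeq2 1.42.0 size factors and by library size, with other count minimums and prior counts, and with each replicate left out.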

Additional observations from a re-analysis of the deposited data

How the results depend on the processing

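No paired analysis was possible because the 3 libraries form a single group. Transcript tables made without alignment gave lower levels, with means of 11.3 TPM for Gas5, 3.09 for Snhg8, 2.73 for Snhg6, 1.92 for Snhg15, 1.36 for Snhg1, 1.24 for Snhg12, 1.08 for Snhg3 and 0.39 for Snhg5. The ratio between the tables, 2.97 to 3.37 for the hosts, had a median of 3.19 over 10343 genes. TPM rescaled over protein-coding and long noncoding genes gave 128.1, 39.98, 33.6, 22.6, 16.7, 15.3, 12.6 and 5.08 TPM in the same order. The order of the hosts was the same in the alignment-free table, and 6 of 8 places held without replicate 2, where Snhg12 passed Snhg1. Leaving out a replicate kept 6 to 8 places. At 5 TPM in place of 1, 4 hosts were detected, and 5 at 1 TPM in the alignment-free table.

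As a share of counts, the leading transcripts held 64.1% (Gas5-224), 63.9% (Snhg1-211), 87.2% (Snhg8-201), 83.4% (Snhg12-206) and 32.6% (Snhg15-201), and the alignment-free table gave 19.8% for Snhg1-211. The following alternatives for retained-intron shares were chosen after seeing the data. The mean share of TPM was 7.36% in Gas5, 19.8% in Snhg1 and 5.10% in Snhg8, and the share of counts was 15.1, 35.6 and 11.2%. Transcripts with a snoRNA in an exon held 8.18% of TPM in Snhg1. Without replicate 2 the Gas5 share of TPM was 3.86%, and without the other replicates 8.99 and 9.23%. Without replicate 3 the Snhg5 share was 12.5%, against 8.36% in all 3. No host passed 2-fold under any scaling, minimum or table tried. The members' median SD of log2 CPM was 0.04 without replicate 2 and 0.15 to 0.19 under every other alternative. Of 136 alternative values, 108 stayed within 1 SD or 1.5 times of the main value. With 3 libraries, a mean cannot move by 1 SD when 1 replicate is left out. Such values were bound to stay, so the tally says little about stability. The cause of the differences between tables and scales was not tested. The count of 63 to 90 for Snhg5 limits what can be said of its transcripts.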
